A study of Mus musculus with 2 samples.

Results

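Carbonic anhydrases are zinc enzymes that turn carbon dioxide and water into bicarbonate and a proton, and back again. The family splits into cytosolic members such as CAR1, CAR2, CAR3 and CAR13, membrane-anchored members such as CAR4, CAR9, CAR12 and CAR14 that act outside the cell, and CAR8, which lacks catalytic activity and is known as a partner of the inositol trisphosphate receptor. CAR2 is best known for supplying the protons with which osteoclasts dissolve bone and for moving carbon dioxide in red cells, and CAR9 and CAR12 are known targets of the hypoxia-inducible factors.

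The 9 genes Car1, Car2, Car3, Car4, Car8, Car9, Car12, Car13 and Car14 were taken by symbol from 28380 genes listed in 2 single-cell libraries of mouse femur and tibia. Both libraries were made at postnatal day 30 from tamoxifen-treated C57BL/6 mice, each from pooled animals of both sexes. The study's methods give 2 mice and 1 run per group. Values by sex below can therefore not be told apart from those of single mice. The library called Control carried Dach1OE +/f, a Rosa26 transgene for the transcription factor DACH1 that stays silent without Cre. The library called Dach1OE carried Apj CreERT2 - Dach1OE +/f, in which tamoxifen-activated Cre from the Aplnr promoter switches the transgene on. The study's methods give tamoxifen on postnatal days 1 and 2. The switch therefore marks cells that used this promoter then and cells that descend from them, not those that use it at day 30. The epiphysis was removed and blood cells were depleted with lineage, CD45 and CD117 beads, so haematopoietic cells in the data are those that escaped depletion. With 1 library a group there was no replicate error, no test was possible, and every interval below is a 95% interval of counting error only.

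The 2 libraries held 28720 (Control) and 32028 (Dach1OE) cells with 143986818 and 166999989 unique molecules (UMIs, one per captured transcript), of which 26466 and 29317 cells with 500 to 6000 genes and under 25% mitochondrial UMIs were kept. The 2 libraries shared 879 cell barcodes among the kept cells. Each cell was placed in a class when it had UMIs of at least 3 of 12 class markers and at least 2 more than for any other class (11 erythroid markers were listed). This gave 9467 and 9646 endothelial, 2292 and 2882 osteoblast, 4449 and 6366 chondrocyte, and 1433 and 1571 erythroid cells, with medians of 9, 9, 12 and 7 own markers per cell. Of these, 4.46% to 15.6% lay at the edge of the gate. Chondrocyte transcripts were spread widely, with a median of 2 chondrocyte markers in endothelial and erythroid cells and 3 in osteoblasts, while the median number of erythroid markers outside the erythroid class was 0. The transgene's own gene, Dach1, rose from 170 UMIs (5.16 CPM, that is UMIs per 1000000 UMIs of the class) to 6359 UMIs (193 CPM) in endothelial cells. No leukocyte passed the gate for osteoclasts, so Car2 could not be described in that cell type.

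On GRCm38, Car13 (chromosome 3, 14641727 to 14663002), Car1 (14766216 to 14808368, reverse strand), Car3 (14863512 to 14872523) and Car2 (14886273 to 14900770) lie next to each other on chromosome 3. Car14 lies farther along the same chromosome (95897768 to 95904691, reverse strand) and overlaps Aph1a on the other strand. Car8 (chromosome 4, 8143362 to 8239041, reverse strand) and Car9 (chromosome 4, 43506966 to 43513729) share a chromosome, and Car9 overlaps Gm12454 on the other strand. Car12 lies on chromosome 9 (66713686 to 66766845) and Car4 on chromosome 11 (84957786 to 84966044). Reads within introns were counted, and UMIs were not scaled to transcript length. The levels of different genes are therefore not ranked below, and where 1 gene is given as a share of a pair's UMIs, that share is compared only between classes and libraries.

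Promoter sequences (250 bases before to 50 after the gene start, RefSeq, GRCm38.p6) were at hand for 4 of the 9 genes. Those of Car4, the member that differed most between the libraries, and of Car9 and Car12, the known hypoxia targets, are printed 5′ to 3′ so that the starts of these members can be compared. Capitals mark the core of the hypoxia-inducible factor motif, ACGTG or GCGTG, searched on both strands.
Car4 promoter (chr11:84957504-84957803, forward strand): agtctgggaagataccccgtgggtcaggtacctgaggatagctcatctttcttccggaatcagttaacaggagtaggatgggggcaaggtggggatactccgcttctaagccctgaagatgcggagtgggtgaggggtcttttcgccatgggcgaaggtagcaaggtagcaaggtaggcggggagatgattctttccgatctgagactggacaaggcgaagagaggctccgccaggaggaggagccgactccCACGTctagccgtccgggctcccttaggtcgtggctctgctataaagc
Car9 promoter (chr4:43506776-43507075, forward strand): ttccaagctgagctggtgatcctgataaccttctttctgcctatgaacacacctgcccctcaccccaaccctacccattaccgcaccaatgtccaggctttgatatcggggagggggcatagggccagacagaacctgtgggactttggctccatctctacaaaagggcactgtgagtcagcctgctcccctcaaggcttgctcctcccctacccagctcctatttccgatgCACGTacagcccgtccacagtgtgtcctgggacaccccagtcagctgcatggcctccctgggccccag
Car12 promoter (chr9:66713436-66713735, forward strand): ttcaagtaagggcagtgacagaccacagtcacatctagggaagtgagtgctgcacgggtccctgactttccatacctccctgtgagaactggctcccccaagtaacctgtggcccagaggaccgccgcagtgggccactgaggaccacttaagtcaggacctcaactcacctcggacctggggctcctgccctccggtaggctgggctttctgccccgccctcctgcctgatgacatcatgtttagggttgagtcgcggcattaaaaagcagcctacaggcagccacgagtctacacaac
Car4, Car9 and Car14 each held 1 match, at bases 253, 233 and 244 of the 300, and Car12 held none. A match was found in 43.8% of all 32817 promoters of this length, so a match in such a window was common. A match describes letters only, and binding was not measured.

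Each of the well-detected members Car1, Car2, Car3, Car8 and Car12 had 1 class with most of its UMIs, and that class was the same in both libraries. The order below was read among 8 classes with 285 or more cells in each library, namely the 4 above and marrow stromal cells, smooth muscle cells or pericytes, fibroblasts or tendon cells, and leukocytes.

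**Figure D1:**
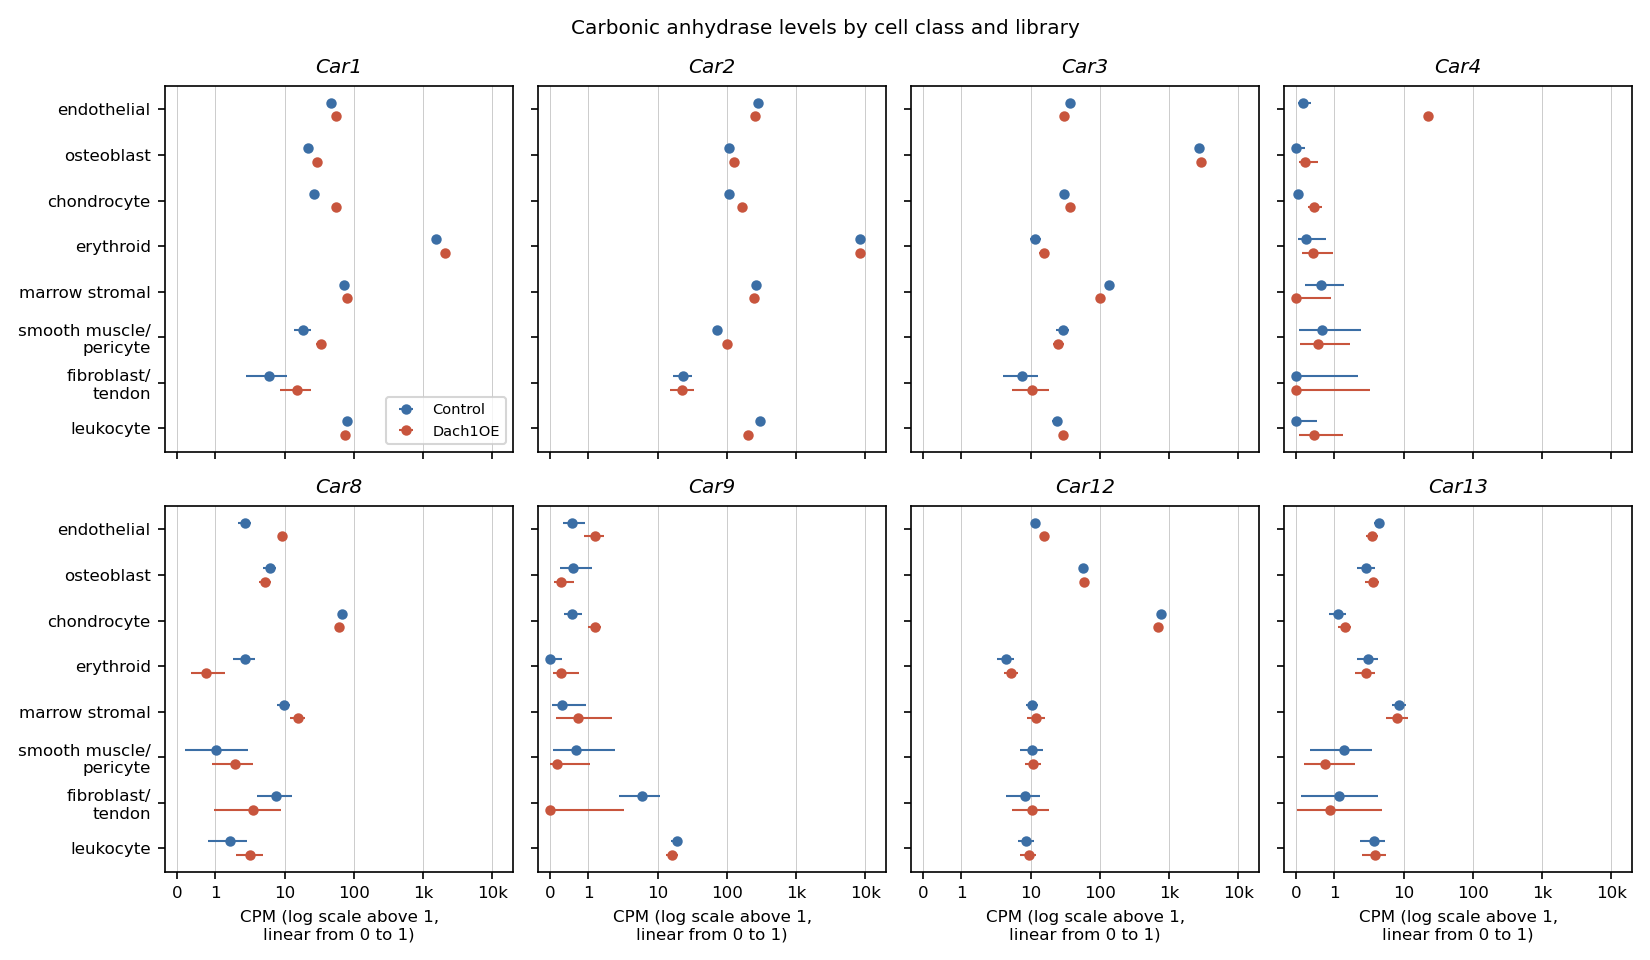
Level of 8 carbonic anhydrase genes (CPM, x axis, linear from 0 to 1 and logarithmic above) in 8 marker-gated cell classes (y axis) of the Control (blue) and Dach1OE (red) libraries, with exact Poisson 95% intervals. Car1 and Car2 stand out in erythroid cells, Car3 in osteoblasts, Car8 and Car12 in chondrocytes, Car9 in leukocytes, and Car4 reached 22.4 CPM in Dach1OE endothelial cells against 0.182 CPM in Control.

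Car2, the fast cytosolic enzyme of red cells, was highest in erythroid cells, which held 71.5% of its UMIs in Control and 68.6% in Dach1OE. Erythroid cells held 95017 UMIs (8365 CPM, 8312 to 8419) in Control and 111964 UMIs (8376 CPM, 8327 to 8425) in Dach1OE, 27.8 and 33.2 times the next class. A Car2 UMI was present in 99.8% and 99.7% of erythroid cells, and still in 99.1% and 98.9% after every cell was thinned to 1000 UMIs. The median erythroid cell carried 60 Car2 UMIs in Control and 72 in Dach1OE.

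Car1, the other red cell enzyme, followed Car2. Its erythroid level was 1535 CPM (1513 to 1558) in Control and 2072 CPM (2048 to 2097) in Dach1OE, a log2 ratio of 0.43 (0.41 to 0.46). Both genes were detected together in 89.7% and 91.3% of erythroid cells. The Car1 difference was unequal between cells with female and with male marker UMIs, although the difference between the 2 values was not tested. With 2 mice a pool, sex cannot be told apart from the single animal. In cells with Xist and no Y-linked UMI, taken as female, Car1 went from 1331 to 2295 CPM (log2 0.79, 0.74 to 0.83). In cells with Y-linked UMIs and no Xist, taken as male, Car1 went from 1804 to 1928 CPM (log2 0.10, 0.05 to 0.14). Car2 in the same cells moved by log2 -0.06 and 0.03. The 2 sets held 622 and 414 of 1433 Control and 569 and 456 of 1571 Dach1OE erythroid cells. The split likewise covered only part of the other classes. The 11 cells of Control and 19 of Dach1OE with early erythroid markers (such as Kit and Cd34) held Car1 at 2369 and 2914 CPM and Car2 at 4962 and 5348 CPM, against 1536 and 2053 CPM of Car1 and 8568 and 8574 CPM of Car2 in the 1270 and 1375 late cells. Car1 was thus lower and Car2 higher in the late cells of both libraries, on few early cells.

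Outside the erythroid class, the part of Car1 and Car2 that lay in cells with erythroid markers differed between classes. Cells with no erythroid marker held 4996 of 9195 (Control) and 3179 of 8309 (Dach1OE) endothelial Car2 UMIs, 945 of 1654 and 1354 of 2640 in osteoblasts, but 555 of 4912 and 827 of 10372 in chondrocytes. Of the Car1 UMIs they held 310 of 1534 and 308 of 1818 in endothelial cells, 113 of 330 and 140 of 596 in osteoblasts, and 262 of 1208 and 349 of 3464 in chondrocytes. In chondrocytes, 91 Control cells and 175 Dach1OE cells with 10 or more Car2 UMIs held 83.7% and 87.7% of all Car2 UMIs, and these cells had a median of 6 and 5 erythroid markers. Chondrocytes with no erythroid marker (4044 and 5753 cells) had Car2 at 13.6 CPM (12.5 to 14.7) and 15 CPM (14 to 16). Car1 in the same cells was 6.41 CPM and 6.32 CPM, near its 8.05 and 7.49 CPM in osteoblasts and 10.3 and 10.3 CPM in endothelial cells without erythroid markers. Car1 at this level differed by less than 2-fold across these 3 classes, whereas Car2 without erythroid markers did not, at 67.3 and 72.5 CPM in osteoblasts and more in endothelial cells.

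**Figure D2:**
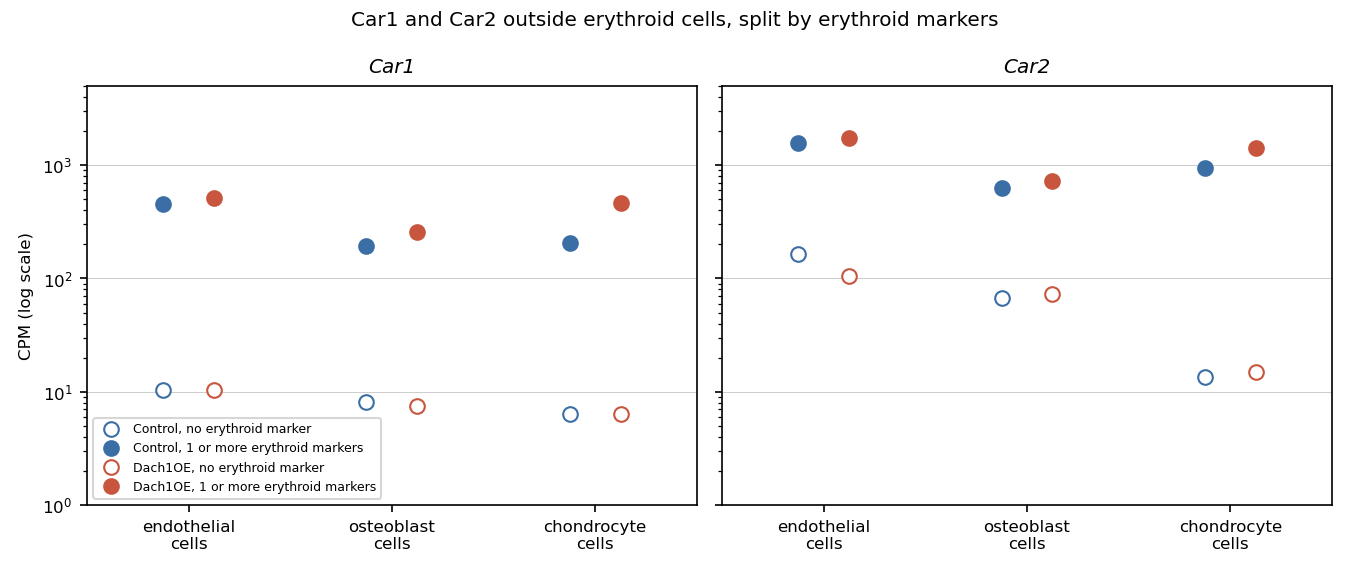
Car1 (left) and Car2 (right) levels (CPM, logarithmic y axis) in endothelial, osteoblast and chondrocyte cells of the Control (blue) and Dach1OE (red) libraries, split into cells with no erythroid marker (open) and with 1 or more (filled). Car1 without erythroid markers stays between 6.32 and 10.3 CPM, while Car2 without them ranges from 13.6 CPM in Control chondrocytes to 165 CPM in Control endothelial cells.

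A Car2 UMI was present in 34.5% and 25.8% of endothelial cells (median depths of 2811 and 2803.5 UMIs), and in 15% and 11.2% after thinning. The same thinned share was 3.93% and 5.27% in chondrocytes, whose cells were deeper (medians of 10254 and 9651 UMIs). Endothelial cells without an erythroid marker held Car2 at 165 CPM (161 to 170, 4996 UMIs) in Control and 106 CPM (103 to 110, 3179 UMIs) in Dach1OE. In these cells Car1 made up 5.84% (5.23% to 6.51%) and 8.83% (7.91% to 9.82%) of Car1 and Car2 UMIs together, below the 15.5% and 19.8% of erythroid cells and the 32.1% and 29.7% of chondrocytes without erythroid markers. Most of this endothelial Car2 lay in cells with sinusoidal markers (Stab2, Vcam1 and others), at 204 CPM (198 to 210) in Control and 157 CPM (151 to 163) in Dach1OE. Arterial-gated cells had 28.6 and 20.5 CPM, and metaphyseal-gated cells (Ramp3, Piezo2, Lamb1 and others, the capillaries near the growth plate) had 40.8 and 46.1 CPM. The sinusoidal gate took 72.2% of Control and 53.2% of Dach1OE endothelial cells.

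Endothelial Car2 was thus lower in Dach1OE once erythroid-marked cells were set aside, with a log2 ratio of -0.64 (-0.70 to -0.57) over all endothelial cells and -0.37 (-0.44 to -0.30) within sinusoidal-gated cells. Setting these cells aside was chosen after seeing the data. With erythroid-marked cells included, the ratio was -0.14 (-0.19 to -0.10) over all endothelial cells and turned to 0.15 (0.10 to 0.20) within sinusoidal-gated cells, where Car2 stood at 291 and 323 CPM. Within metaphyseal-gated cells it was -0.66 (-0.80 to -0.53) with them, from 289 to 183 CPM. The small remodelling gate went from 148 to 14 UMIs with them (-2.95, -3.85 to -2.15). Over all endothelial subtypes with them, the ratio was -0.03 (-0.11 to 0.05) in Xist cells and -0.33 (-0.40 to -0.25) in Y-linked cells. The sinusoidal and metaphyseal values were all under 2-fold, and both changed sign with the cells that carried erythroid markers. Within the other gates the intervals without erythroid markers spanned 0, for example 0.18 (-0.15 to 0.51) in metaphyseal-gated cells, against the -0.66 above. The summed haemoglobin level, a measure of red cell RNA, was 174 and 192 CPM in all endothelial cells against 5503 and 4377 CPM in erythroid cells. It was not split by erythroid markers, so it does not describe the cells without them. How much endothelial Car2 came from red cell RNA was not tested.

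Car3, a cytosolic member of low activity best known from muscle and fat, was the osteoblast member. Osteoblasts held 41185 UMIs (2718 CPM, 2692 to 2744) in Control and 58815 UMIs (2875 CPM, 2852 to 2899) in Dach1OE. The next class, marrow stromal cells, had 134 and 102 CPM, so osteoblasts stood 20.3 and 28.2 times above it. Car3 was broad within the class, with a UMI in 91.8% and 93.5% of osteoblasts (77.2% and 81.9% thinned) and a median of 14 and 19 UMIs per cell. Endothelial cells, which lack osteoblast identity, had a Car3 UMI in 2.3% and 1.98% of thinned cells, and their level fell to 10 and 10.5 CPM where no osteoblast marker was present. The 15 skeletal muscle-gated cells of each library had 37 UMIs (916 CPM) and 77 UMIs (2730 CPM). Hypertrophic-gated chondrocytes (Col10a1, Mmp13, Spp1 and others, a list that shares Ibsp and Alpl with the osteoblast list) had 154 CPM (138 to 172) in Control and 88.8 CPM (79.4 to 99) in Dach1OE, against 23.2 and 29.4 CPM in prehypertrophic-gated cells.

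Car12, a membrane enzyme with its active site outside the cell, was highest in chondrocytes. Chondrocytes held 34646 UMIs (761 CPM, 753 to 769) in Control and 42519 UMIs (686 CPM, 680 to 693) in Dach1OE, which was 92.4% and 93% of all Car12 UMIs. Osteoblasts came next at 57.7 and 60 CPM. Only 42 and 18 osteoblasts carried no chondrocyte marker, and they held 4 of 874 and 0 of 1227 osteoblast Car12 UMIs. Osteoblast Car12 could therefore not be read apart from cells with chondrocyte transcripts. After thinning, 42.8% and 39.8% of chondrocytes held a Car12 UMI (82.2% and 78.8% unthinned), against 1.21% and 1.53% of endothelial cells. Among the chondrocyte gates Car12 was highest in prehypertrophic-gated cells (Ihh, Pth1r, Mef2c, Cd200, Wnt4 and Fgfr3), at 829 and 772 CPM, with a UMI in 94% and 92.5% of them. This gate was broad, with 28588 and 32755 of the chondrocyte Car12 UMIs, so it does not stand for a narrow zone. Chondrocytes with no subtype had 624 and 563 CPM. Hypertrophic-gated cells had 374 and 316 CPM and upper growth plate cells 446 and 461 CPM, and none of the levels of the 3 gates overlapped within a library by their intervals.

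Car8, the member without catalytic activity, was also highest in chondrocytes, where 5.64% and 5.26% of thinned cells held a UMI. Chondrocytes held 3061 UMIs (67.3 CPM, 64.9 to 69.7) and 3803 UMIs (61.4 CPM, 59.4 to 63.4). Prehypertrophic-gated cells were again highest, at 74.8 and 73 CPM, against 46.1 and 38.3 CPM in hypertrophic-gated and 38.4 and 29.2 CPM in upper growth plate cells. The latter 2 gates overlapped in their intervals in both libraries, and chondrocytes with no subtype had 44.3 and 37.3 CPM. Car8 made up 8.12% and 8.21% of Car8 and Car12 UMIs in chondrocytes, and 9.62% and 8.09% in osteoblasts. In marrow stromal cells it made up 47.9% (40.6% to 55.2%) and 55.9% (46.1% to 65.3%), where Car8 stood at 9.76 and 15.4 CPM.

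Car9, a membrane enzyme of hypoxic cells, had few UMIs and its highest level in leukocytes, with 127 UMIs (18.8 CPM, 15.7 to 22.3) in Control and 106 UMIs (16.2 CPM, 13.3 to 19.6) in Dach1OE. Leukocytes held 54% of all Car9 UMIs in Control but 38.1% in Dach1OE, where 77 of 278 UMIs lay in chondrocytes, 41 in endothelial cells and 40 in ungated cells. Most of the leukocyte UMIs came from the basophil gate (1062 and 1199 of the leukocytes), at 20.7 and 17.4 CPM. The 46 and 79 myeloid progenitor-gated cells had 16.1 CPM (5.9 to 35) and 23.2 CPM (12 to 40.5), which overlapped with basophils. Chondrocytes, where the hypoxia response is known to act, had 0.571 and 1.24 CPM. In chondrocytes the share of thinned cells with a Car9 UMI was 0.0677% and 0.142%, against 2.29% and 2.14% of leukocytes.

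Car13 and Car14 could be read only in part. Car13, a cytosolic enzyme, had 448 and 445 UMIs in all and was highest in marrow stromal cells at 8.58 CPM (6.81 to 10.7) and 8.18 CPM (5.63 to 11.5). Endothelial cells were next in Control (4.37 CPM, 3.69 to 5.15) and leukocytes in Dach1OE (3.83 CPM, 2.48 to 5.66), and the latter interval touched that of the marrow stromal cells. The other 3 members of the chromosome 3 cluster peaked in erythroid cells or osteoblasts, where Car13 stood at 3.08 and 2.84 CPM and at 2.9 and 3.57 CPM. Car14, a membrane enzyme, had 20 and 12 UMIs in all kept cells and could not be ranked. Erythroid cells held 0 Car14 UMIs in both libraries, which allows levels of up to 0.264 and 0.224 CPM (3 counts). Car9 and Car14 also overlap genes on the other strand, and how strand was handled in counting is not given in the sources used here, so both levels are uncertain.

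The genes whose levels followed Car1, Car2, Car3, Car8, Car9, Car12 and Car13 most closely over the 16 class and library values were named by Pearson correlation of log2(CPM + 1), as a description only, since the 2 values of a class share its cells' identity. Car2 was closest to Hba-a1 (0.991), Alad (0.986) and Ermap (0.983), and Car1 to Klf1 (0.987), Rhag (0.983) and Car2 itself (0.982). Car3 was closest to Cdh15 (0.981), Bglap (0.976) and Bglap2 (0.974), the latter pair encoding osteocalcin. Car12 was closest to Panx3 (0.990), Trpv4 (0.983) and Gramd2 (0.983), and Car8 to Fzd9 (0.929), Sox9 (0.921) and Fgfr3 (0.912). Car9 was closest to Gpr34 (0.965), Alox15 (0.912) and Lat2 (0.908), and Car13 to H2-K1 (0.899), Nlrc5 (0.889) and Ubxn8 (0.888).

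The comparison of Dach1OE with Control asked which members differed where the DACH1 transgene was on, and where it was not meant to be. A member counted as past 2-fold where it had 20 or more UMIs over both libraries and a log2 ratio of CPM of at least 1 in size. In endothelial cells 3 of the 8 members with enough UMIs passed, all higher in Dach1OE, where 6.96% of 16272 genes passed in either direction. In chondrocytes 3 of 8 passed, all higher, against 3.29% of 17696 genes. In erythroid cells 1 of 6 passed, lower, against 3.63% of 12738 genes, and in osteoblasts 0 of 6, against 3.34% of 14694 genes. The members were chosen with earlier results of these data known, so their counts and the medians below cannot be weighed against all genes. The minimum was on the sum of both libraries, and Car4 met it through Dach1OE. Its UMIs were 6 and 736 in endothelial cells and 2 and 30 in chondrocytes. The chondrocyte count fell to 0 after thinning and to 2 (Car4 and Car9) without cells with erythroid markers, and the erythroid count to 0 after thinning or with a minimum of 100 UMIs. Much of this followed from the UMI minimum. Thinned chondrocytes held Car4 in 0 and 2 cells and Car9 in 3 and 9, and thinned erythroid cells held Car8 in 6 and 2. Thinned chondrocyte Car1 was at log2 0.73. Erythroid Car8, with 30 and 10 UMIs, could not reach 100. Median log2 ratios of the tested members were 0.33, 0.48, 0.13 and 0.16 in endothelial cells, chondrocytes, erythroid cells and osteoblasts, beside 0.03, -0.01, 0.00 and -0.07 over all genes with enough UMIs and a UMI in both libraries. The medians of the tested genes among the 7 other carbonic anhydrase genes described below lay the other way. These medians were -0.86, -0.39, -0.90 and -0.48 in the same order of classes. In each class at least 1 of these genes lay above 0, for example Car5b at 0.32 (0.11 to 0.54) in chondrocytes.

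**Figure D3:**
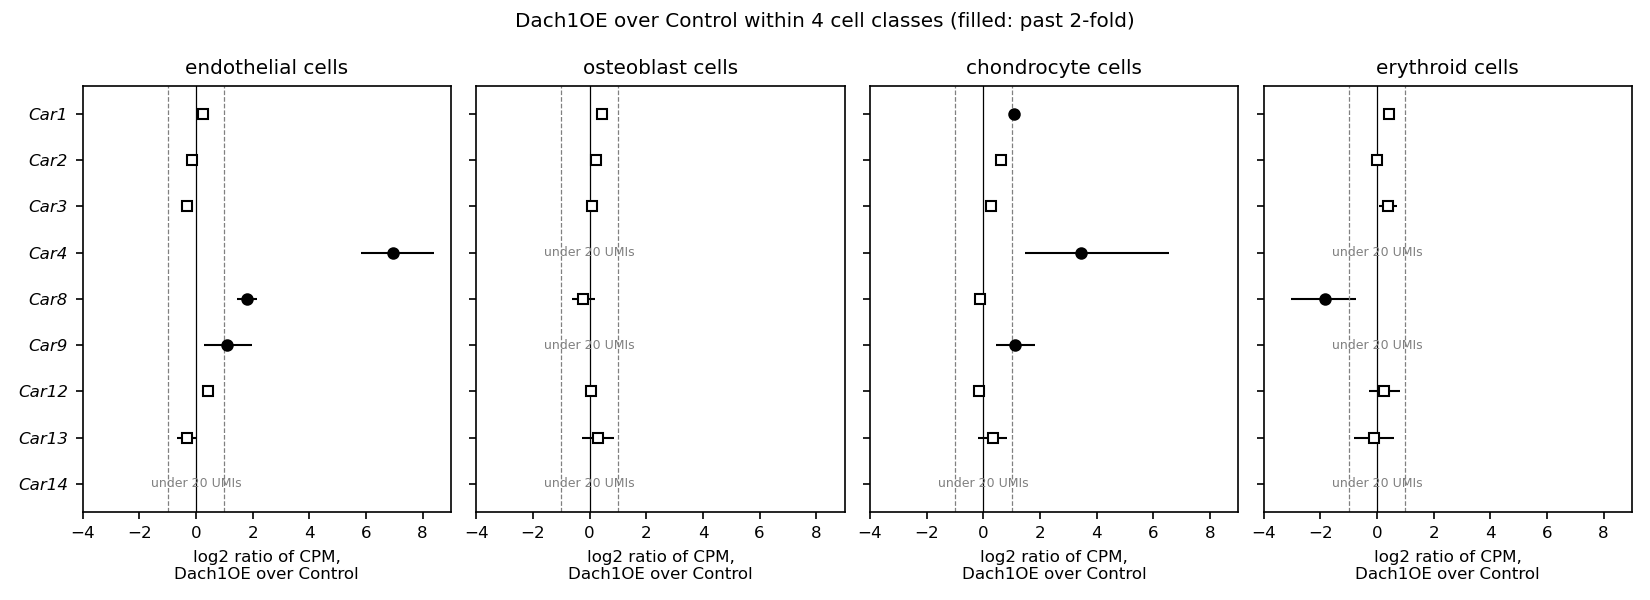
Log2 ratio of CPM, Dach1OE over Control (x axis), for the 9 genes (y axis) in 4 cell classes, with exact binomial 95% intervals of counting error. Filled points lie past 2-fold (dashed lines) and grey text marks genes with under 20 UMIs. Endothelial Car4 stands alone at 6.94.

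Car4, the membrane-anchored enzyme of capillary endothelium in lung and other organs, had the largest difference of the 9 genes. Control endothelial cells held 6 Car4 UMIs in 5 of 9467 cells (0.182 CPM, 0.0669 to 0.397), and Dach1OE endothelial cells 736 UMIs in 282 of 9646 cells (22.4 CPM, 20.8 to 24.1). The log2 ratio was 6.94 (5.81 to 8.39). After thinning, 0.0108% of Control and 1.82% of Dach1OE endothelial cells held a Car4 UMI, and 0 of the thinned osteoblasts of either library did. The UMIs did not rest on a few cells, since 141 cells held 1 UMI, 99 held 2 to 4, 31 held 5 to 9 and 11 held 10 or more, and the highest single cell held 20 UMIs (2.72% of the total). Both sex-marked sets of Dach1OE cells contributed, with 265 UMIs (24.4 CPM) in cells with Xist against 0 in Control, and 152 UMIs (16.4 CPM) in cells with Y-linked UMIs against 1 in Control.

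Within the endothelium Car4 was uneven. Cells gated by remodelling markers (C1qtnf9, Fmo2, Aqp7, Cav1 and others) were highest, with 91 UMIs in 127 Dach1OE cells (238 CPM, 192 to 292) and 0 UMIs in 171 Control cells, at least 41.6-fold higher when Control is set to 3 counts. The exact interval of the log2 ratio, which also takes in the counting error of the 91 UMIs, had a lower limit of 5.05, below that fold. Cells with no subtype had 281 UMIs (55.7 CPM, 49.4 to 62.6) against 1, and metaphyseal-gated cells 200 UMIs (42 CPM, 36.4 to 48.2) against 3. Arterial-gated cells had 41 UMIs (9.1 CPM, 6.53 to 12.4) against 0, and sinusoidal-gated cells 123 UMIs (6.78 CPM, 5.64 to 8.09) against 2. In thinned Dach1OE cells the share with Car4 was 15.9% (9.97% to 23.4%) in the remodelling gate, 3.78% in the metaphyseal gate, 0.751% in the arterial gate and 0.576% in the sinusoidal gate. The remodelling gate was small, at 1.81% of Control and 1.32% of Dach1OE endothelial cells. It held 12.4% of the Dach1OE endothelial Car4 UMIs, and the cells with no subtype held the largest part at 38.2%.

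**Figure D4:**
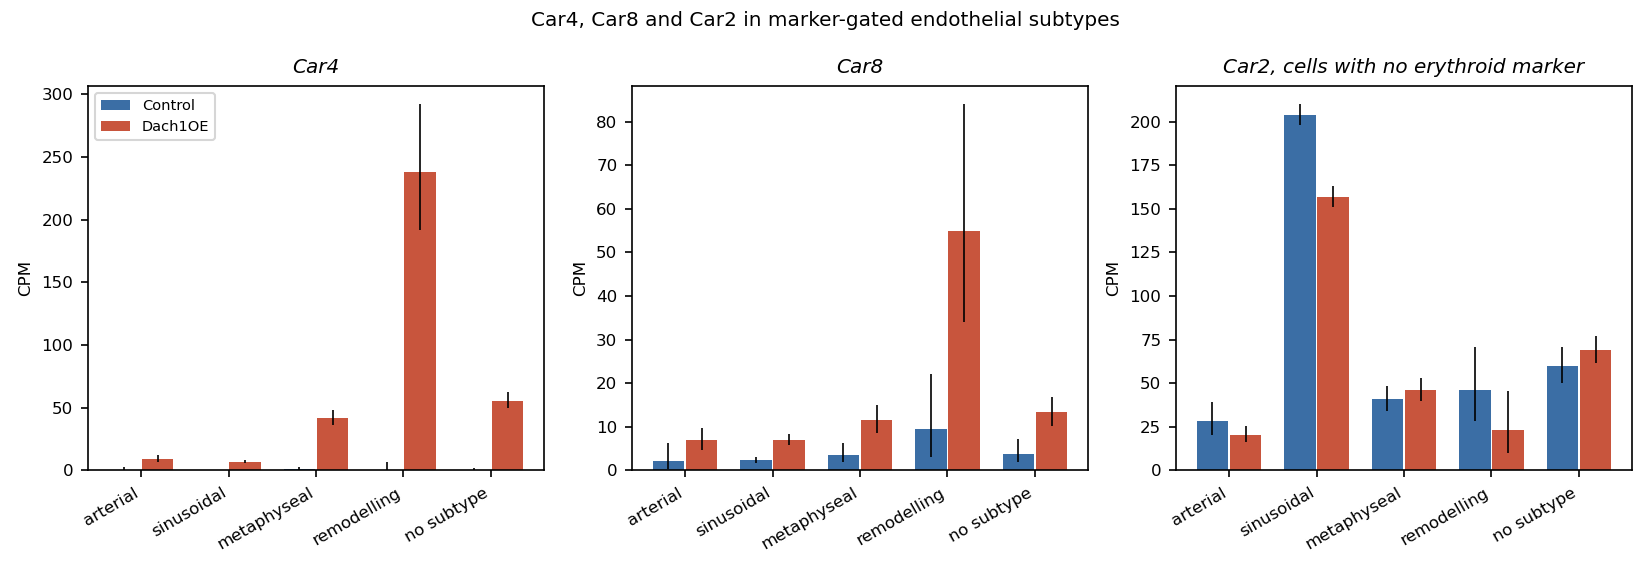
Car4 (left), Car8 (middle) and Car2 in cells with no erythroid marker (right) in marker-gated endothelial subtypes (x axis) of the Control (blue) and Dach1OE (red) libraries, in CPM from 0 with exact Poisson 95% intervals. Car4 and Car8 are highest in the remodelling gate of Dach1OE at 238 and 54.9 CPM, and Car2 is highest in the sinusoidal gate at 204 and 157 CPM.

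Cells with a Dach1 UMI held Car4 somewhat more often than cells without, with an interval of the ratio that included 1. Among thinned Dach1OE endothelial cells, 2.44% (1.74% to 3.32%) of the 1600 cells with a Dach1 UMI and 1.69% (1.42% to 2%) of the 7742 cells without one held Car4, a ratio of 1.44 (0.98 to 2.07). Without thinning the shares were 4.2% of 3666 cells and 2.14% of 5980 cells, whose median depths also differed (3464 and 2499 UMIs). Most cells of the thinned library held no Dach1 UMI, so absence of a UMI does not mark a cell as without the transgene. The thinned share was 2.49% (1.71% to 3.49%) with 1 Dach1 UMI and 2.24% (0.904% to 4.55%) with 2 or more. Within the metaphyseal gate the shares were 5.82% (2.94% to 10.2%) with and 3.4% (2.38% to 4.7%) without Dach1, and within the sinusoidal gate 0.591% and 0.573%. Dach1 in Dach1OE stood at 141 CPM in the remodelling, 172 in the metaphyseal, 186 in the sinusoidal and 223 in the arterial gate. It was 219 CPM with no subtype. This order was not that of Car4, and the relation was not tested.

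Outside the endothelium Car4 was near 0, with at most 6 UMIs in any Control class. Dach1OE chondrocytes held 30 UMIs (0.484 CPM, 0.327 to 0.691) against 2 in Control, past 2-fold at log2 3.46 (1.48 to 6.57). The Car4-positive chondrocytes of Dach1OE carried a median of 5.5 endothelial markers, where the median chondrocyte had 0, and in the 3200 chondrocytes with no endothelial marker 4 UMIs remained. The ungated cells, which include cells with markers of several classes, held 48 Car4 UMIs in Dach1OE and 0 in Control.

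Car8 was also higher in Dach1OE endothelial cells, and this held in each subtype with enough UMIs. It went from 87 UMIs in 76 cells (2.64 CPM, 2.12 to 3.26) to 301 UMIs in 264 cells (9.15 CPM, 8.15 to 10.2), a log2 ratio of 1.79 (1.44 to 2.15). Log2 ratios were 1.61 (1.15 to 2.09) in the sinusoidal, 1.69 (0.77 to 2.73) in the metaphyseal, 1.70 (0.02 to 4.05, on 3 Control UMIs) in the arterial and 2.53 (1.08 to 4.29) in the remodelling gate, and 1.78 (0.81 to 2.90) in cells with no subtype. Cells with Xist gave 2.06 and cells with Y-linked UMIs 1.96. The ratio to Car12 was not that of chondrocytes. Car8 made up 18.6% (15.2% to 22.5%) of endothelial Car8 and Car12 UMIs in Control and 37.2% (33.9% to 40.6%) in Dach1OE, against 8.12% and 8.21% in chondrocytes. In endothelial cells with no chondrocyte marker at all (1059 and 643 cells) Car8 went from 8 to 22 UMIs, 2.83 to 13.7 CPM.

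Endothelial Car12 stood at 11.5 CPM (Control) and 15.4 CPM (Dach1OE), a log2 ratio of 0.42 (0.23 to 0.62), and in cells with no chondrocyte marker it was 7.07 and 4.97 CPM on 20 and 8 UMIs. Car9 passed 2-fold in endothelial cells, from 19 to 41 UMIs (0.577 to 1.25 CPM, 2.16-fold, log2 interval 0.29 to 1.98), at a level where 0.404% of Dach1OE cells held a UMI. With mixed cells left out, that is cells with 2 or more markers of another class, the log2 ratio turned to -0.45. Endothelial Car3 had a log2 ratio of -0.32, but 0.04 (-0.23 to 0.31) in Y-linked cells and 0.06 (-0.23 to 0.35) in cells with no osteoblast marker. By gate Car3 was at -1.74 (-3.16 to -0.53, from 32 to 7 UMIs) in remodelling, -0.64 (-1.05 to -0.24) in metaphyseal and -0.54 (-1.02 to -0.04) in arterial cells. It was at -0.20 (-0.35 to -0.05) in sinusoidal cells and -0.05 (-0.44 to 0.35) in cells with no subtype. Endothelial Car13 had -0.31 (-0.68 to 0.05), and 0.28 with mixed cells left out. Endothelial Car1 had no steady direction. It was at 0.25 over all cells, at 0.00 (-0.23 to 0.24) without erythroid markers, at 0.52 (0.35 to 0.69) in Xist cells and at -0.19 (-0.36 to -0.02) in Y-linked cells. By gate, with erythroid-marked cells included, it was 0.63 (0.50 to 0.75) in sinusoidal, -0.91 (-1.17 to -0.65) in metaphyseal and -2.06 (-3.46 to -0.88, from 40 to 7 UMIs) in remodelling cells. Without erythroid-marked cells these were -0.07 (-0.37 to 0.23), -0.58 (-1.25 to 0.09) and -1.94 (-4.37 to -0.11). Cells with no subtype then had 1.36 (0.45 to 2.39), against 0.08 (-0.23 to 0.40) with them. Over all endothelial cells, Car1 was at -0.53 with equal weights of the subtypes and at -0.49 with mixed cells left out.

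In chondrocytes, which the transgene was not meant to reach, Car1 passed 2-fold by a narrow margin, from 1208 UMIs (26.5 CPM) to 3464 UMIs (55.9 CPM), log2 1.07 (0.98 to 1.17). In cells without erythroid markers the log2 ratio was -0.02 (-0.26 to 0.22), while chondrocytes with erythroid markers had 205 and 463 CPM. The number of chondrocytes with 10 or more Car1 UMIs was 33 in Control and 103 in Dach1OE. Car9 went from 26 to 77 UMIs (0.571 to 1.24 CPM, log2 1.12, 0.46 to 1.82), and from 13 to 54 UMIs (log2 1.59, 0.69 to 2.58) in chondrocytes with no leukocyte marker. In Y-linked chondrocytes it went from 10 to 31 UMIs and was not past 2-fold (log2 0.89, -0.18 to 2.08), while in Xist cells it went from 6 to 21 UMIs (1.75, 0.40 to 3.35). The members highest in chondrocytes stayed under 2-fold, with log2 ratios of -0.15 (-0.17 to -0.13) for Car12 and -0.13 (-0.20 to -0.06) for Car8, and Car12 in the prehypertrophic gate at -0.10 (-0.13 to -0.08). Chondrocyte Dach1 itself was 2.88 and 6.55 CPM, a log2 ratio of 1.19 (0.90 to 1.48). Chondrocyte Car2 had 0.63, and 0.14 (-0.01 to 0.30, from 555 to 827 UMIs) in cells without erythroid markers. It passed 2-fold in Y-linked cells (1.19, 1.09 to 1.30) but not in Xist cells (0.77, 0.69 to 0.85), and stood at 1.97 with cells that carried 2 or more markers of another class left out, which kept 85 and 95 cells. Car13 in chondrocytes had 0.33 (-0.18 to 0.85). Car3 had 0.26 over all chondrocytes, 0.07 (-0.09 to 0.23) in Xist and -0.19 in Y-linked cells.

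In osteoblasts no member with enough UMIs passed 2-fold over all cells. Car3 had a log2 ratio of 0.08 (0.06 to 0.10), Car12 of 0.06 (-0.07 to 0.18), Car13 of 0.30 (-0.26 to 0.87) and Car8 of -0.22 (-0.63 to 0.20). Car13 was at -0.52 (-1.67 to 0.59) in Xist cells and at 1.25 after thinning. Car1 and Car2 stood at 0.42 and 0.24 (Car1 at -0.21 in Y-linked cells and 1.5 with mixed cells left out), and at -0.10 and 0.11 in osteoblasts without erythroid markers, with intervals that spanned 0. The osteoblast Car12 value pooled opposite directions, -0.30 (-0.52 to -0.07) in Xist cells and 0.36 (0.11 to 0.61) in Y-linked cells, and it was 1.5 in the 6.15% and 3.16% of osteoblasts left when cells with 2 or more markers of another class were taken out. The osteoblast values above 1 in size rested on fewer than 20 UMIs. In erythroid cells Car2 was at 0.00 (-0.01 to 0.01) and Car13 at -0.12. Erythroid Car3 was at 0.39, but went from 47 to 113 UMIs in Xist cells (1.16, 0.66 to 1.69, past 2-fold) and from 45 to 44 in Y-linked cells (-0.13, -0.76 to 0.50). Erythroid Car12 was at 0.25, with -0.44 (-1.29 to 0.40) in Xist cells and 0.90 (-0.15 to 2.04) in Y-linked cells. It was at 2.09 after thinning, where only 3 Control and 14 Dach1OE cells held a Car12 UMI. Erythroid Car8 went the other way from endothelial Car8, from 30 to 10 UMIs (2.64 to 0.748 CPM, log2 -1.82, -3.02 to -0.75), at a level where 1.95% and 0.637% of cells held a UMI. Most erythroid cells carried a chondrocyte marker, and the 125 of 1433 and 81 of 1571 that carried none held 1 and 1 of these UMIs.

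Genes outside the 9 that work on the same chemistry were counted by lists. Of 7 other carbonic anhydrase genes, 5 had enough UMIs in endothelial cells, 4 in osteoblasts, 6 in chondrocytes and 3 in erythroid cells, and in each class Car5a, a mitochondrial carbonic anhydrase, was the 1 gene past 2-fold, lower in Dach1OE. It went from 102 to 15 UMIs in endothelial cells (log2 -2.76, -3.65 to -1.98), from 34 to 5 in osteoblasts (-3.20, -4.91 to -1.84), from 347 to 96 in chondrocytes (-2.30, -2.64 to -1.97) and from 176 to 24 in erythroid cells (-3.11, -3.79 to -2.49). Both the Xist and the Y-linked cells showed it in chondrocytes (-2.57 and -2.29) and in endothelial cells (-2.26 and -2.52). Of 12086 genes with enough UMIs in all 4 classes, 8 were lower by 2-fold in each of them, 0.0662%, and Car5a was 1 of these 8.

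Of 11 bicarbonate and anion exchangers, 11 were tested in endothelial cells and 1 passed, Slc4a4, a sodium bicarbonate cotransporter, which went from 274 to 69 UMIs (8.32 to 2.1 CPM, log2 -1.99, -2.39 to -1.60). Over all endothelial genes 6.96% of 16272 passed, so 1 of 11 was near the general share. The lists, too, were chosen with earlier results of these data known, so this comparison is a description only. None of this list passed in the other 3 classes. Of 11 sodium-proton exchanger genes (up to 10 tested a class), 6 lactate transport genes (5 tested a class), 8 osteoclast proton pump genes (7 or 8 tested a class), 6 gas channel genes (3 or 4 tested a class) and 4 haemoglobin genes, 0 passed 2-fold in any of the 4 classes. Median log2 ratios of the sodium-proton exchangers lay between -0.13 and 0.18, and those of the lactate transport genes between -0.18 and 0.19.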

How the data were processed

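Single-cell RNA sequencing was done on 2 libraries, Control and Dach1OE, 1 per group. The authors deposited unique molecule counts per cell and gene made by version 1.11 (per the file headers) of the BD Rhapsody WTA Analysis Pipeline on GRCm38 (mm10) with the GENCODE vM19 annotation. Intronic reads were counted, and molecule counts adjusted by the pipeline for sequencing and amplification errors were used here as deposited.

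Cells were kept and gated as given above. Doublets were not called. Cells with markers of several classes stayed in a class where its markers led as given above, and were otherwise ungated. The class values thus include many mixed cells. The alternative that left out cells with 2 or more markers of another class kept 23.9% and 19% of endothelial cells. It kept 6.15% and 3.16% of osteoblasts, 1.91% and 1.49% of chondrocytes, and 24.5% and 18.3% of erythroid cells (Control and Dach1OE). The gate limits were set after seeing the data, and the 9 genes and all lists were chosen with earlier results of these data known. Counts were summed per class and library and scaled to CPM, with exact Poisson intervals. Ratios have exact binomial (Clopper-Pearson) intervals, as do shares. Shares were compared after thinning cells to 1000 UMIs, leaving out shallower cells (240 and 304 endothelial cells, at most 38 in any other of the 8 classes). Genes named are the 9 members, list genes past 2-fold, and the 3 closest profiles of each member with 100 or more UMIs, among genes with 500 or more (those of Car4 are not reported here). Gene positions are from GENCODE vM21 on GRCm38. Scripts used Python 3.11.15, NumPy 2.4.6, SciPy 1.17.1 and pandas 2.3.3, and edgeR 4.0.16 for TMM factors as an alternative, and were tested on simulated data. Alternatives covered the count minimum, scaling, thinning, mixed cells, mitochondrial limit, sex and subtype weights.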

Additional observations from a re-analysis of the deposited data

Results flagged for a closer look

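Car8 differed in opposite directions in endothelial and erythroid cells. Its log2 ratio of Dach1OE over Control was 1.79 (1.44 to 2.15) in endothelial cells, from 87 to 301 UMIs, and -1.82 (-3.02 to -0.75) in erythroid cells, from 30 to 10 UMIs. Both sets of cells, with Xist and with Y-linked UMIs, had the sign of their class (2.06 and 1.96 in endothelial cells, -2.42 and -2.10 in erythroid cells, where the interval of the latter spanned 0). Most erythroid cells carried a chondrocyte marker, and the 125 of 1433 and 81 of 1571 cells without one held 1 of 30 and 1 of 10 Car8 UMIs (log2 0.58, -5.72 to 6.87), so the direction could not be read there. The difference between the classes was not tested, because there is 1 library a group.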

How the results depend on the processing

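No paired analysis was possible because each group was 1 library. Of 284 log2 ratios under the other settings, 258 kept their sign and 208 lay within the original counting interval. Of 22 more under settings chosen after seeing the data, 19 kept their sign and 15 lay within it. With no UMI minimum, 3 members passed 2-fold in osteoblasts and 2 in erythroid cells. The 3 were Car4 (0 and 5 UMIs), Car9 (9 and 6) and Car14 (0 and 2), and the 2 were Car8 (30 and 10) and Car9 (0 and 4). A count of 0 in 1 library was taken as past 2-fold. The share of all genes under this rule is not given here, so these counts cannot be compared with it. Thinned to 1000 UMIs, 0 passed in chondrocytes and 0 in erythroid cells. The erythroid count was also 0 with a minimum of 100 UMIs, 0 with mixed cells left out (2 or more markers of another class), 2 in cells with Xist (Car3 and Car8) and 0 in cells with Y-linked UMIs. Where it was 0, Car8 had too few UMIs to count, while its log2 ratio lay from -2.42 to -1.74 over 10 other settings. With mixed cells left out, which kept 23.9% and 19% of endothelial cells, endothelial Car4 had a lower bound of log2 4.77 (Control at 0, set to 3 counts) and Car9 turned to -0.45. The share of endothelial cells with Car4 was 2.92% unthinned. Chondrocyte Car1 turned to -0.02 without cells with erythroid markers, an alternative chosen after seeing the data. The causes were not tested. Car4 in Control, Car9, Car13 and Car14 had few UMIs, which limits what can be read from them. Median depth was alike in the endothelial cells of both libraries, at 2811 and 2803.5 UMIs.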

Other observations

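Car7, a cytosolic carbonic anhydrase outside the 9 genes, was singled out after its values were seen. Over all endothelial cells it went from 559 to 300 UMIs (17 to 9.12 CPM), a log2 ratio of -0.90 (-1.10 to -0.69) that was not past 2-fold. In arterial-gated endothelial cells it went from 447 UMIs in 382 Control cells (316 CPM, 288 to 347) to 243 UMIs in 1220 Dach1OE cells (54 CPM, 47.4 to 61.2), a log2 ratio of -2.55 (-2.78 to -2.32). In metaphyseal-gated cells it went from 33 to 6 UMIs (log2 -2.97, -4.51 to -1.69), in cells with no subtype from 31 to 22 UMIs (-1.46, -2.32 to -0.63), and in sinusoidal-gated cells from 42 to 28 UMIs (-0.13, -0.87 to 0.60). The arterial gate took 4.04% of Control and 12.6% of Dach1OE endothelial cells.

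Cells that entered no class held 13% of all Car2 UMIs in Control and 16.6% in Dach1OE. Of these, 338 and 478 cells with 10 or more Car2 UMIs held 90.2% and 92.5%, and they had medians of 5 erythroid markers and 5 markers of the next class.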
